A study of Mus musculus with 8 samples.

Results

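Eosinophils and basophils are rare granulocytes of blood, and the genes described here are used as markers of one or the other. Not all are restricted to these cells, as Cd200r3 is also a gene of mast cells. The 10 genes were chosen by name, 5 for eosinophils (Prg2, Epx, Siglecf, Il5ra and Ccr3) and 5 for basophils (Fcer1a, Ms4a2, Mcpt8, Prss34 and Cd200r3), and every probe set of the array whose only annotated gene is among them was taken. This gave 11 probe sets of 9 genes, of 45037 probe sets and 18193 genes in all. Prss34, a serine protease of basophils, had no such probe set and has no value here. The 5 eosinophil genes had 1 probe set each. Fcer1a and Mcpt8 also had 1, and Ms4a2 and Cd200r3 had 2. Where a gene had 2, the brighter over the 8 arrays stands for it, and the dimmer is given beside it.

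Blood RNA of 8 female C57BL/6J mice was measured on Day 7, with 1 Affymetrix array per mouse. The mice were aged 6-8 weeks at purchase, before acclimation and the restraint period. The 4 RST mice (restraint stress) had been confined daily for 6 h, and the 4 control mice went without food and water in the same hours. Values are log2 expression levels as the authors deposited them, and each log2 fold change is RST minus control.

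Eosinophils grow under interleukin 5, are drawn into tissue by eotaxins through the receptor CCR3, and carry granules packed with cationic proteins that they release against parasites and in allergy. Basophils carry the high-affinity receptor for IgE on their surface and release histamine, proteases and interleukin 4 when IgE on that receptor is cross-linked. Both arise in the bone marrow from progenitors that depend on GATA factors, and both are sensitive to glucocorticoids, which lower eosinophil numbers in blood.

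All 9 measured genes had a lower mean level in RST than in control mice at their brighter probe set, where 54.4% of all genes did. The difference was widest for the granule protein gene Prg2, at −2.80 on the log2 scale (standard error 0.98), and ran from −1.24 to −0.42 for the other 8. None of the 9 passed an adjusted p under 0.05 (limma, Benjamini-Hochberg over 45037 probe sets), and neither did any other gene (0 of 45037 probe sets, or 0.0%; the count at an unadjusted p under 0.05 was 4930). Prg2 and Siglecf met the unadjusted limits, which are p under 0.05 together with more than a 1.5-fold difference. These were 2 of 9 genes, both lower in RST mice, against 9.18% of all genes in that direction. No member had all RST values below all control values, against 4.45% of all genes. In whole blood, fewer cells of a type and less RNA per cell cannot be told apart.

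The arrays bear on how these values can be read. The median log2 fold change was −0.010 over all probe sets and −0.043 over all genes at their brightest probe set. The unadjusted limits were met by 3912 probe sets, or 8.69%, and 75.3% of these were lower in RST mice. This share was 53.3% after quantile normalization, 93.8% when arrays were scaled by their control probe sets and 50.6% without RST mouse 4. In 29.1% of probe sets RST mouse 4 was the lowest array. Hybridization controls, transcripts added to each sample before hybridization, averaged 12.35 to 12.73 in RST mice, against 11.90 and 11.93 in control mice 2 and 1 and 12.60 and 12.74 in control mice 4 and 3. The reticulocyte and platelet markers measured were above the array median on all 8 arrays, as were 6 of 7 B cell markers, while Pax5 was above it on 0 of 8. Over 7 reticulocyte markers the mean level of a mouse was 9.51 to 10.15 in RST and 8.51 to 9.39 in control mice, over 6 platelet markers it was 9.78 to 10.29 and 9.81 to 10.06, and over 7 B cell markers 6.97 to 7.35 and 7.64 to 8.49. Of the members' own probe sets, RST mouse 4 was lowest in 2 of 11.

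Prg2 encodes major basic protein, the main protein of the crystalline core of eosinophil granules. Its log2 level was 2.84, 3.66, 2.16 and 2.19 in RST mice 1 to 4, against 7.94, 2.36, 6.39 and 5.36 in control mice 1 to 4. Control mice 1, 3 and 4 were above every RST mouse, and control mouse 2 was within the RST range, so the groups overlapped. The means were 2.71 ± 0.70 in RST and 5.51 ± 2.35 in control mice (SD, n = 4 each), a difference of −2.80 (95% interval −5.00 to −0.60), or 6.98-fold. The unadjusted p was 0.018 and the adjusted p 0.38 (limma), and the exact permutation test of 4 mice against 4 gave a two-sided p of 0.086, where the smallest that it allows is 0.029. Prg2 was above the median of the array in 1 of 4 RST and 3 of 4 control arrays. Its level in the other 3 RST mice was therefore dim, whether it was above background there was not assessed, and with low values floored at the 25th percentile the log2 fold change was −2.73. The value rested in part on single control mice. Leaving out control mouse 1 gave −1.99 (unadjusted p = 0.045), and leaving out control mouse 2 gave −3.85 (unadjusted p = 1.5e-04).

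Epx encodes eosinophil peroxidase, a granule enzyme that makes oxidants from hydrogen peroxide and halides. Its log2 level was 2.49, 2.29, 1.87 and 2.19 in RST mice 1 to 4, against 5.23, 1.93, 4.01 and 2.63 in control mice 1 to 4. The order of the control mice was that of Prg2, with mouse 1 highest and mouse 2 lowest, and mouse 2 was again within the RST range. The log2 fold change was −1.24 (standard error 0.61, unadjusted p = 0.070, adjusted p = 0.49 in limma; exact permutation test, two-sided, p = 0.17). Epx was above the array median in 0 of 4 RST and 2 of 4 control arrays. Leaving out control mouse 1 gave −0.65, and leaving out control mouse 2 gave −1.75 with an unadjusted p of 0.0093.

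The 3 surface receptors of eosinophils had smaller differences and a narrower spread. Siglecf encodes Siglec-F, a sialic acid-binding inhibitory receptor used to identify mouse eosinophils. It was at 3.22, 3.28, 2.63 and 2.36 in RST mice 1 to 4 and at 3.83, 4.14, 3.32 and 3.27 in control mice 1 to 4. RST mouse 2 lay just above control mouse 4, and the other 3 RST mice were below every control mouse. It was above the array median in 0 of 4 RST and 2 of 4 control arrays. The log2 fold change was −0.77 (standard error 0.29), or 1.70-fold, with an unadjusted p of 0.023 and an adjusted p of 0.40 (limma; exact permutation test, two-sided, p = 0.057). The unadjusted p went above 0.05 when RST mouse 3 (0.061), RST mouse 4 (0.063), control mouse 1 (0.058) or control mouse 2 (0.070) was left out, and the log2 fold change was −0.44 with the hybridization controls as a covariate.

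Il5ra encodes the alpha chain of the interleukin 5 receptor. Its log2 level was 3.95, 3.09, 3.83 and 3.11 in RST mice 1 to 4, against 3.92, 3.81, 4.25 and 4.35 in control mice 1 to 4. RST mice 2 and 4 were below all control mice, and RST mice 1 and 3 were among them. The log2 fold change of −0.58 (standard error 0.26, unadjusted p = 0.047, adjusted p = 0.45 in limma; exact permutation test, two-sided, p = 0.14) fell just short of the 1.5-fold limit. Ccr3, the eotaxin receptor gene, was at 4.02, 4.09, 4.03 and 3.55 in RST mice 1 to 4 and at 4.20, 4.50, 4.06 and 4.64 in control mice 1 to 4. RST mouse 2 alone was above a control mouse, mouse 3. Its log2 fold change was −0.43 (standard error 0.21, unadjusted p = 0.067, adjusted p = 0.48 in limma; exact permutation test, two-sided, p = 0.057).

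**Figure D1:**
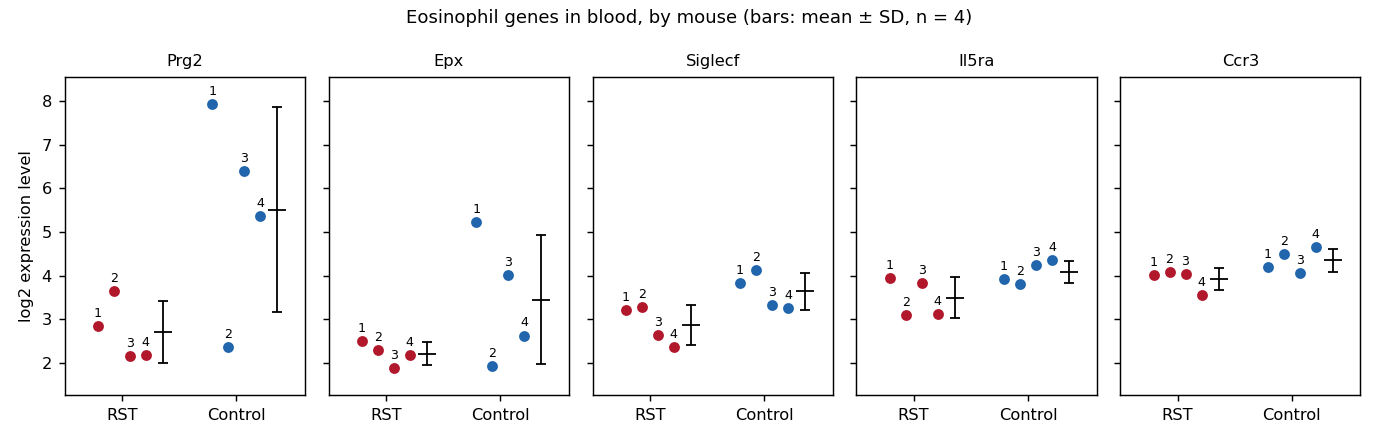
Log2 expression level of 5 eosinophil genes in blood, 1 numbered point per mouse, RST (red) left of control (blue), with black bars for mean ± SD (n = 4 each). Control mice 1, 3 and 4 were high for Prg2 (5.36 to 7.94) and control mouse 2 was at 2.36, among the RST mice.

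Among the basophil genes, Fcer1a and Ms4a2 encode the alpha and beta chains of the high-affinity IgE receptor. Fcer1a was at 1.91, 2.49, 2.11 and 1.96 in RST mice 1 to 4 and at 2.53, 3.76, 2.09 and 2.53 in control mice 1 to 4. The groups overlapped through control mouse 3. The difference was −0.61 on the log2 scale (standard error 0.34, unadjusted p = 0.10, adjusted p = 0.54 in limma). Fcer1a was above the array median in 0 of 4 RST and 1 of 4 control arrays, so that both groups were dim. The value was −0.27 without control mouse 2, −0.40 with low values floored at the 25th percentile and −0.21 with the hybridization controls as a covariate. Ms4a2 was at 3.87, 3.30, 4.56 and 4.29 in RST mice 1 to 4 and at 4.86, 4.71, 3.66 and 4.59 in control mice 1 to 4 at its brighter probe set. Control mouse 3 was below 3 of the RST mice. For this probe set the log2 fold change was −0.45 (standard error 0.34, unadjusted p = 0.22, adjusted p = 0.65 in limma), and −0.21 without RST mouse 2. The dimmer probe set gave 0.039 (standard error 0.46), with 1.83 to 3.63 in RST mice and 1.92 to 3.39 in control mice, so the probe sets of Ms4a2 differed in sign.

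Mcpt8 encodes a granule serine protease that marks basophils in mice. It was at 5.06, 4.41, 4.21 and 4.28 in RST mice 1 to 4, against 4.82, 5.21, 5.16 and 5.07 in control mice 1 to 4. RST mouse 1 was within the control range, and the other 3 RST mice were below it. The log2 fold change was −0.58 (standard error 0.22), or 1.49-fold, with an unadjusted p of 0.029 and an adjusted p of 0.41 (limma; exact permutation test, two-sided, p = 0.057). Mcpt8 missed the 1.5-fold limit. Its value was −0.32 after quantile normalization (unadjusted p = 0.20) and −0.77 without RST mouse 1 (unadjusted p = 0.0032), which met the unadjusted limits.

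Cd200r3 encodes an activating receptor of the CD200 receptor family on basophils and mast cells. Its brighter probe set was at 2.44, 2.08, 2.29 and 3.21 in RST mice 1 to 4 and at 2.61, 4.20, 2.64 and 2.23 in control mice 1 to 4. This probe set was above the array median in 1 of 4 RST and 1 of 4 control arrays, and the dimmer one in 1 and 0, so that both were dim. At the brighter one the groups overlapped throughout, and the log2 fold change was −0.42 (standard error 0.42, unadjusted p = 0.35, adjusted p = 0.74 in limma). It was 0.0072 without control mouse 2, which was the highest of the 8 mice. The dimmer probe set was at 1.99, 2.13, 2.07 and 4.04 in RST mice 1 to 4 and at 1.46, 1.70, 2.07 and 2.07 in control mice 1 to 4. This is a log2 fold change of 0.73 (standard error 0.44, unadjusted p = 0.13, adjusted p = 0.57 in limma). The probe sets of this gene therefore differed in direction.

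**Figure D2:**
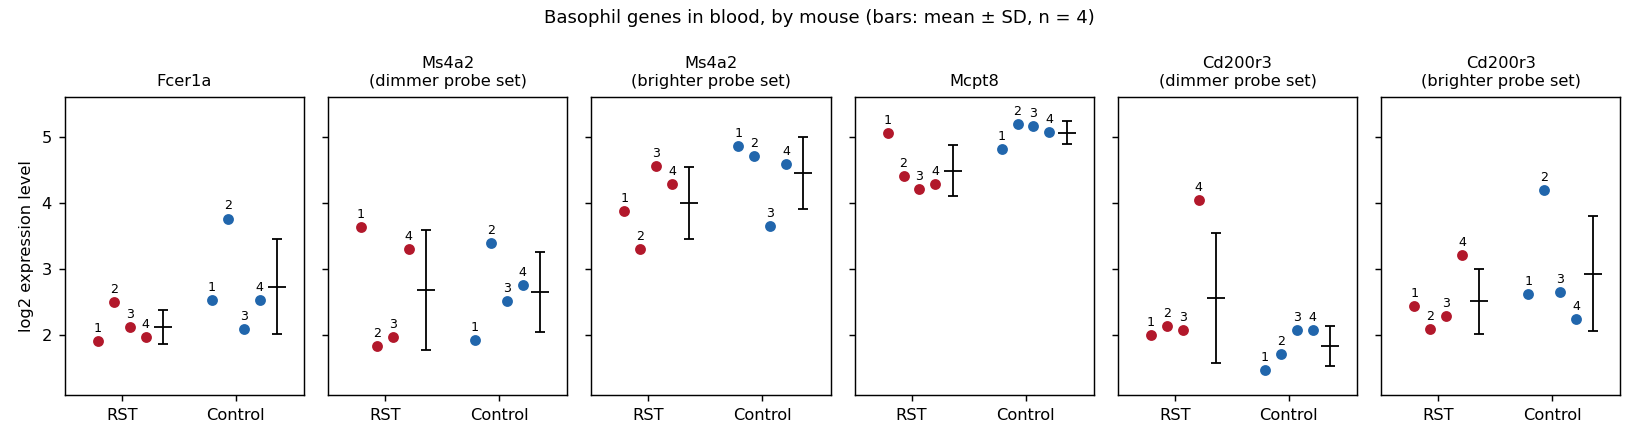
Log2 expression level at 6 probe sets of 4 basophil genes in blood, 1 numbered point per mouse, RST (red) left of control (blue), with black bars for mean ± SD (n = 4 each). The groups overlapped at every probe set, and at Mcpt8 3 RST mice (4.21 to 4.41) were below all control mice (4.82 to 5.21).

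**Figure D3:**
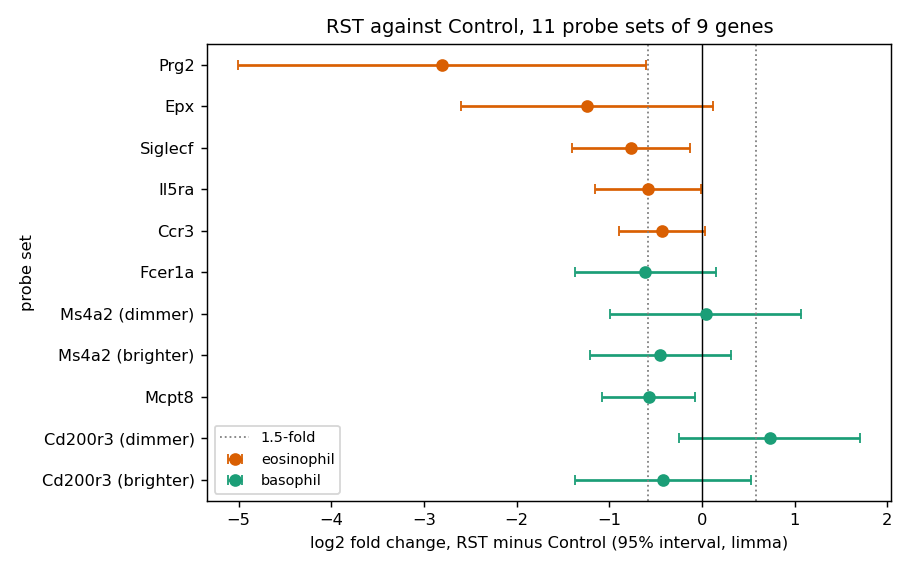
Log2 fold change, RST minus control, of the 11 probe sets of 9 genes, with 95% intervals from limma. Dotted lines mark 1.5-fold, eosinophil genes are orange and basophil genes green. The intervals of Prg2, Siglecf, Il5ra and Mcpt8 lie below 0, before adjustment over 45037 probe sets.

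RefSeq promoters were read for 9 of the 10 genes (GRCm38.p6, 250 bases before the start site used in that table). The table held no entry for Prg2. The core that GATA factors recognise was searched on both strands as AGATAA or AGATAG (and the same starting with T, that is TGATAA or TGATAG), and 6 of the 9 promoters held a match, against 26.5% of 32851 promoters of the same length. To compare promoters with and without the core in both kinds of cell, 5 are shown, 5′ to 3′ on the strand of the gene, with the matches in capitals. Il5ra has 1 match, Ccr3 2 and Ms4a2 3, while Epx and Mcpt8 have none in this window.
Il5ra (chr6:106749038-106749287, minus strand): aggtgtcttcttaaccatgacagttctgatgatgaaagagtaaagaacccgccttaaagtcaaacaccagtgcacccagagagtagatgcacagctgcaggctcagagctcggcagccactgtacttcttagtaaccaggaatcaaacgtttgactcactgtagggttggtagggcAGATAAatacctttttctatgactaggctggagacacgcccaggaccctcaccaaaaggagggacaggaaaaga
Ccr3 (chr9:124021721-124021970, plus strand): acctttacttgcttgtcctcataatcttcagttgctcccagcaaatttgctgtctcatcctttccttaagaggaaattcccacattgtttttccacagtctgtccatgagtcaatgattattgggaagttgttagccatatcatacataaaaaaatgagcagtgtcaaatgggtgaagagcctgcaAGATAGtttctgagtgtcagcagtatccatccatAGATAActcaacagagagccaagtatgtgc
Epx (chr11:87875537-87875786, minus strand): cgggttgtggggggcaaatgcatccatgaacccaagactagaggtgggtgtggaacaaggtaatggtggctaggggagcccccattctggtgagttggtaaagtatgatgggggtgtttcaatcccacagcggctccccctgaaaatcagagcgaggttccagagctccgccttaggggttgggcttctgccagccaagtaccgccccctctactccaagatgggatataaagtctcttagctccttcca
Ms4a2 (chr19:11623720-11623969, minus strand): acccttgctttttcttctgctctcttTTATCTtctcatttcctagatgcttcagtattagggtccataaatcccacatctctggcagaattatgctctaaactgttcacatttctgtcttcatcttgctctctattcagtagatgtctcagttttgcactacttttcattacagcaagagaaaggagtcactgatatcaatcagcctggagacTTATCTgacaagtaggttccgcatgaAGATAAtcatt
Mcpt8 (chr14:56085198-56085447, minus strand): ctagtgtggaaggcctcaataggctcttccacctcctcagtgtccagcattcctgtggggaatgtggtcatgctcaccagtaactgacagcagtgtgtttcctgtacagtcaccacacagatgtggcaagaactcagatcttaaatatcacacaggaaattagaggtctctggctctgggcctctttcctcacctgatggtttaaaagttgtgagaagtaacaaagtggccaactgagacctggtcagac
A match is a description of these letters and not a bound site. All 9 genes with values had negative log2 fold changes at the probe set that stands for them. A split by matches therefore could not differ in direction, and a relation of matches to expression was not tested. Of the 5 promoters shown, those with a match belonged to Il5ra (−0.58), Ccr3 (−0.43) and Ms4a2 (−0.45, and 0.039 at its dimmer probe set). Those without one belonged to Epx (−1.24) and Mcpt8 (−0.58).

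Eosinophil genes were set against basophil genes. The median log2 fold change was −0.77 over the 5 eosinophil genes and −0.51 over the 4 basophil genes, with −0.043 for all genes. The basophil median was −0.31 without control mouse 2, −0.16 without control mice 1 and 2 and −0.26 with the hybridization controls as a covariate. Without control mice 1 and 2 the eosinophil median was −0.80. A mean level was also taken per mouse, by centring each gene on its mean of the 8 mice and averaging over the genes. For the eosinophil genes it was −0.32, −0.34, −0.72 and −0.94 in RST mice 1 to 4 and 1.40, −0.28, 0.78 and 0.42 in control mice 1 to 4. All RST mice lay below all control mice, by a small gap between RST mouse 1 and control mouse 2. No gene of the 5 separated the groups alone, where 4.45% of all genes did. No such share was computed for means over several genes. Without the granule genes, the mean of Siglecf, Il5ra and Ccr3 was 0.0040, −0.24, −0.23 and −0.72 in RST mice 1 to 4, against 0.26, 0.42, 0.15 and 0.36 in control mice 1 to 4. Here too the groups did not overlap, and control mouse 2 was the highest of the 8. The split into granule and receptor genes was not part of the planned comparison. For Prg2 and Epx alone the groups overlapped, with −1.46 to −0.50 in RST mice and −1.32 to 3.12 in control mice.

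For the 4 basophil genes the mean was −0.22, −0.47, −0.24 and −0.10 in RST mice 1 to 4 and 0.17, 0.93, −0.15 and 0.071 in control mice 1 to 4. The groups overlapped through control mouse 3. The eosinophil minus the basophil mean was −0.33 ± 0.42 in RST and 0.33 ± 1.09 in control mice (SD, n = 4 each), and the groups overlapped, from −0.84 to 0.12 in RST mice and from −1.21 to 1.23 in control mice. The difference between eosinophil and basophil genes was therefore within the spread between mice. Control mouse 2 held the lowest value of this difference and control mouse 1 the highest.

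**Figure D4:**
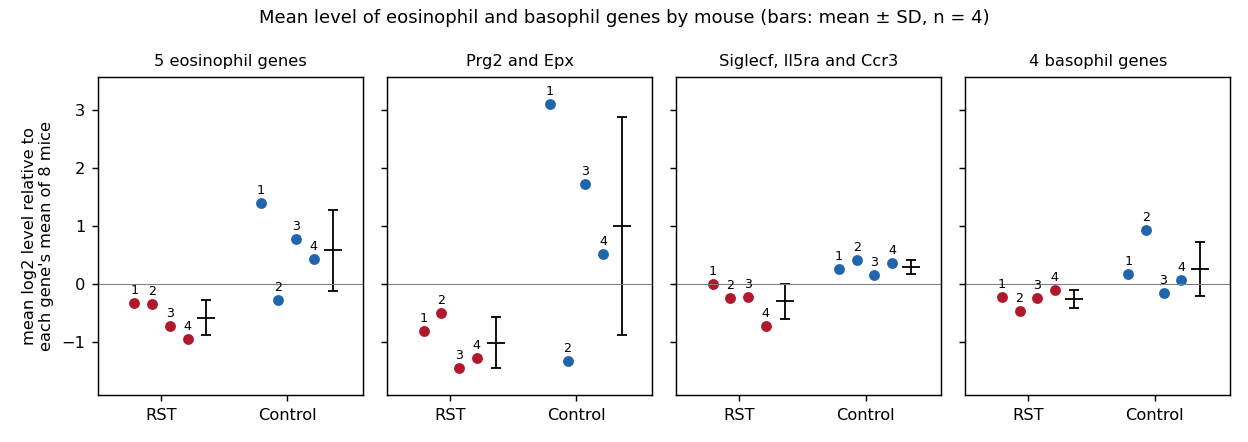
Mean log2 level per mouse, relative to each gene's mean of 8 mice, of 5 eosinophil genes, of Prg2 and Epx, of Siglecf, Il5ra and Ccr3, and of 4 basophil genes, RST (red) left of control (blue), with bars for mean ± SD (n = 4 each). Control mouse 2 was low for Prg2 and Epx (−1.32) and highest for the receptors (0.42) and the basophil genes (0.93).

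Prg2 was the eosinophil gene with the largest SD over the 8 arrays (2.20), and the genes nearest to its profile were sought among all genes. Likeness was the root mean square difference between log2 values, each gene centred on its own mean of the 8 arrays, and the median gene was 2.06 from Prg2. The nearest were Ngp (0.69), Camp (0.75) and Ltf (0.76), which encode neutrophilic granule protein, cathelicidin and lactoferrin, proteins of neutrophil granules made by maturing cells in the bone marrow. Cxcl12, a chemokine gene of bone marrow stroma (1.08), and Epx (1.09) followed. The other eosinophil genes were much further off, with Il5ra at 1.88, Siglecf at 1.89 and Ccr3 at 1.98, not far below the median gene. The basophil genes were at 1.93 (Mcpt8) to 2.33 (Cd200r3). The 5 nearest genes were chosen for values like those of Prg2, so a like pattern over the mice follows from the choice. Ngp was at 3.81, 6.71, 2.92 and 4.24 in RST mice 1 to 4. In control mice 1 to 4 it was at 9.46, 4.30, 8.14 and 7.70, high in mice 1, 3 and 4. Its log2 fold change was −2.98. That of Camp was −2.37, of Ltf −1.79 and of Cxcl12 −1.88. Mpo, the myeloperoxidase gene of neutrophil progenitors, was picked after its values were seen. It was at 1.85 to 2.37 in RST mice, against 5.82 in control mouse 1 and 1.53 to 2.80 in the other control mice. Mpo belongs to a list of 8 progenitor genes (median log2 fold change −0.26). Of these, 5 had a lower mean in RST mice, against 54.4% of all genes, and 3 a higher one. Prtn3, of the same list, was highest in control mouse 2 (3.77), where Mpo was lowest (1.53).

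**Figure D5:**
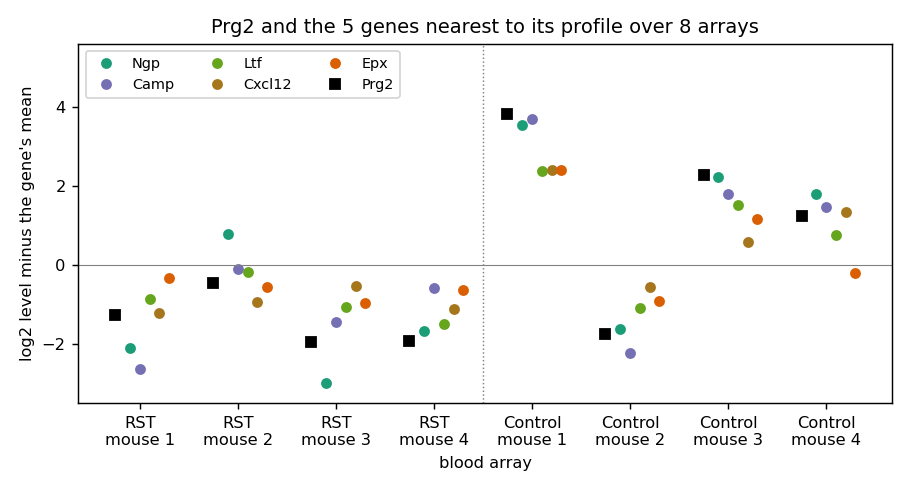
Log2 level of Prg2 (black squares) and of the 5 genes nearest to it, each minus its mean of 8 arrays, by mouse, with the RST mice left of the dotted line and the control mice right of it. The 5 genes were chosen for nearness to Prg2, so a like pattern follows from the choice. All 6 genes were high in control mouse 1 and below their mean in control mouse 2.

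For Cd200r3, the basophil gene with the largest SD (0.69), the nearest genes were Mgl2, Oosp1, Wnt2, Zfp773 and Tasor, at 0.22 to 0.33, against 0.79 for the median gene. These genes too were chosen for their likeness. Mgl2 was highest in control mouse 2 (3.59) and next highest in RST mouse 4 (2.81), as Cd200r3 was. Cd200r3 was dim, and Mgl2 at 1.58 to 3.59 and Wnt2 at 1.76 to 3.28 were dim as well, where the array medians were 3.19 to 3.46. Tasor was bright, at 6.72 to 8.08. Whether the dim values were above background was not assessed.

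Further genes of these cells were also compared. Of 12 further eosinophil genes 6 had a probe set with a single gene name. A lower mean in RST mice was seen in 3 of these, against 54.4% of all genes, and a higher one in 3. None was below an unadjusted p of 0.05 in limma. The Ear ribonucleases, granule proteins of mouse eosinophils, were not among these 6. Ptger4, a prostaglandin E2 receptor gene, was at 6.74 to 7.66 in RST and 7.66 to 7.95 in control mice. Every RST mouse was below every control mouse, in 1 of the 6 genes, against 4.45% of all genes. The log2 fold change of Ptger4 was −0.46 (unadjusted p = 0.070 in limma). Adgre1, which encodes F4/80, was at −0.62 (unadjusted p = 0.24). Prg3, the paralogue of Prg2, chosen after its values were seen, was at 2.07, 2.57, 2.37 and 4.14 in RST mice 1 to 4 and at 3.41, 1.70, 2.97 and 2.73 in control mice 1 to 4. The log2 difference was 0.086, and the groups overlapped.

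Of 14 further basophil genes 12 were measured, 7 with a lower mean in RST mice, against 54.4% of all genes, and 5 with a higher one. Their median log2 fold change was −0.13. Only Itgb7, an integrin chain gene that lymphocytes also use, met the unadjusted limits, at −0.77 (standard error 0.30). That is a share near the 9.18% of all genes lower at these limits. Cpa3, which encodes a carboxypeptidase of basophil and mast cell granules, was at 2.95, 2.68, 3.09 and 2.91 in RST mice 1 to 4 and at 3.48, 4.01, 3.09 and 3.28 in control mice 1 to 4. Each RST mouse was below each control mouse, narrowly so for RST mouse 3 and control mouse 3. Only this 1 of the 12 separated so, against 4.45% of all genes. Cpa3 was above the array median in 0 of 4 RST and 2 of 4 control arrays. Its log2 fold change was −0.56 (standard error 0.23, unadjusted p = 0.035, adjusted p = 0.43 in limma, and p = 0.029 in the two-sided exact permutation test). Of 9 measured mast cell genes of 10, 1 passed the unadjusted limits, Cma1, a chymase gene, at −0.60. This share too was near that of all genes. Over the 9 mast cell genes the mean level of a mouse was 2.75 to 2.91 in RST and 2.77 to 3.24 in control mice. Kit, a receptor gene of mast cells and of progenitors, was at most 1.87 in RST mice, against 1.96 to 2.27 in control mice. Only this 1 of the 9 mast cell genes had all RST mice below all control mice, against 4.45% of all genes. Kit was above the array median in 0 of 4 RST and 0 of 4 control arrays, so that both groups were dim. Its log2 fold change was −0.32 (unadjusted p = 0.094 in limma).

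Ligands and receptor partners of these cells did not pass. All 12 were measured, 10 with a lower mean in RST mice, against 54.4% of all genes. Their median was −0.091. Il5, the ligand of the Il5ra product, was at 2.20 to 2.69 in RST mice and 2.04 to 2.81 in control mice. Csf2rb, the beta chain that signals for the receptors of interleukin 3, interleukin 5 and GM-CSF, was at −0.89 (standard error 0.57, unadjusted p = 0.15), and Il3ra, the interleukin 3 receptor alpha chain gene, at −0.29 (unadjusted p = 0.18). Of 11 measured genes of signalling from the IgE receptor, all 11 had a lower mean, against 54.4% of all genes, and 3 passed the unadjusted limits in that direction, against 9.18% of all genes. Their median was −0.65. These were Syk, the kinase bound to the receptor (−0.65), and the phospholipases Plcg1 (−0.79) and Plcg2 (−0.93). They also act in T and B cells. Fcer1g, the receptor's shared gamma chain gene, was at −0.15 (standard error 0.22).

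Against 9.18% of all genes, 6 of 7 measured B cell markers passed the unadjusted limits and were lower in RST mice (median −1.09, with the smallest p for Ly6d at −1.30 and Fcrla at −1.39), as were 5 of 7 T cell markers (−0.99, Cd3d at −0.99), 3 of 6 NK cell markers (−0.67, Gzma at −0.94), 2 of 7 monocyte markers (−0.45, Ms4a6c at −1.18 and Ccr2 at −0.75) and 1 of 8 neutrophil markers (−0.24, Ngp), a share near that of all genes. Of 7 reticulocyte markers 5 were higher (Selenbp1 at 1.29), against 2.32% of all genes in that direction, and of 6 platelet markers none passed (0.24, Vwf at 0.39 and Itga2b at 0.28). The mean level of a mouse over the neutrophil markers was 6.67 to 8.66 in RST and 7.36 to 8.92 in control mice, and over the monocyte markers 6.51 to 7.70 in RST and 6.66 to 8.20 in control mice, so that both overlapped. Over the B cell markers, given above, the groups did not overlap. The part of other cells in the values of the eosinophil and basophil genes was not tested.

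GATA-1 is required for eosinophils in mice and GATA-2 for basophils. Of 13 measured transcription factor genes of these lineages, 10 had a lower mean in RST mice (median −0.41), against 54.4% of all genes. In that direction 1 passed the unadjusted limits, a share near the 9.18% of all genes. This was Irf8, a factor of monocytes and B cells as well, at 4.80 to 6.87 in RST and 6.45 to 7.41 in control mice (unadjusted p = 0.040). Gata1 and Gata2, picked for their role after their values were seen, had log2 fold changes of 0.66 (standard error 0.33) and 0.048 (standard error 0.39). Erythroid cells and platelets also carry these transcripts. Of 8 progenitor genes, all measured, Myb passed the unadjusted limits, at 6.02 to 6.54 in RST and 6.94 to 7.85 in control mice (log2 fold change −1.18, median of the list −0.26). The other 7 did not, so the share was near the 9.18% of all genes lower at these limits. In 2 of the 8, Myb and Kit, all RST mice were below all control mice, against 4.45% of all genes. Myb was above the array median in 4 of 4 RST and 4 of 4 control arrays. Kit, Elane, Ctsg, Ms4a3 and Cd34 were above it in 0 of 4 and 0 of 4. Which blood cells the Myb signal came from was not tested.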

How the data were processed

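RNA of whole blood (30 ng per mouse) was amplified and read on Affymetrix arrays of the mouse genome. The authors deposited a log2 value for each probe set. Their processing notes name RMA, Affymetrix Expression Console 1.2.0.20 and Partek, and their methods name GSRMA, which correct the background, normalize the arrays and summarize the probes. Presence calls and scanner values were not used here.

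Gene names came from the platform annotation, updated through Entrez identifiers for 34754 probe sets. A single gene was named for 34958 probe sets and several for 932, and 9211 were not listed. The 64 control probe sets were left out, and 45037 were compared, RST against control, with limma 3.58.1 in R 4.3.3 (lmFit, eBayes, Benjamini-Hochberg). No intensity filter was set, because a filter by group (above the array median in at least 2 of 4 arrays) would keep Prg2, Epx and Siglecf through the control mice alone. With it, 7 of the 9 genes remained. For a call, the adjusted p had to be under 0.05 with more than a 1.5-fold difference, and the unadjusted limits use the raw p instead. Single genes were also compared by exact permutation of mice (scipy 1.17.1). The members and lists were chosen with earlier results of these data known, so no list was tested. Named are all members, for each other list the genes with an unadjusted p under 0.05 or, failing that, the 2 smallest (of the B cell, T cell, NK cell and reticulocyte lists, only those 1 or 2 with the smallest p or an example), with Il5, Fcer1g and Kit added for their roles after their values were seen, and the 5 genes nearest in profile to the member of each kind with the largest SD. Mpo, Prtn3, Elane, Ctsg, Ms4a3, Cd34, Prg3, Gata1 and Gata2 were also named after their values were seen. The fit was tested on simulated data. The number of arrays limits the precision. No slide or scan batch is given in the sources used here. Figures were drawn with matplotlib 3.10.9.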

Additional observations from a re-analysis of the deposited data

Results flagged for a closer look

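Ccr3 in RST mouse 4 was at 3.55, set apart from the other 3 RST mice, the nearest of which was at 4.02. The gap was 0.86 of the range of the group, above the 95% critical value of Dixon's test for 4 values. The dimmer probe set of Cd200r3 was at 4.04 in RST mouse 4, with the nearest RST mouse at 2.13 and a gap of 0.93 of the range. These were 2 of 26 sets of 4 values checked, where chance gives about 1 in 20.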

How the results depend on the processing

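Of 20 alternatives, leaving out control mice 1 and 2 together was chosen after seeing the data. No member passed an adjusted p under 0.05 in any (smallest 0.24). The fit without a prior, the trended and robust prior, the replicate block and the intensity filter leave each fold change as in the main fit. The mean of all probe sets does so for genes with 1 probe set. Of 178 member values, these unchanged ones included, 175 were below 0. The exceptions were of Cd200r3, at 0.16 for the mean of its probe sets, 0.066 without control mice 1 and 2 and 0.0072 without control mouse 2. It ran from −0.65 to 0.0072 on leaving out each mouse. Over all probe sets 1 was called with a trended and robust prior and 0 otherwise. The unadjusted count of 3912 was 2446 with the analysis of variance without a prior, 1712 without control mice 1 and 2 and 2432 to 5925 on leaving out each mouse (lowest without control mouse 1, highest without RST mouse 2). The 2 member genes past the unadjusted limits became 6 after scaling to the control probe sets, which moved the median of all probe sets to −0.21, 4 with the replicate block and 1 with the analysis of variance (Prg2 unadjusted p = 0.062). They were 1 to 4 on leaving out each mouse (1 without RST mouse 4, 4 without control mouse 3 or RST mouse 1). The cause of these changes was not tested. The eosinophil median ran from −0.90 to −0.60 and the basophil median from −0.63 to −0.31 on leaving out each mouse, and the basophil median was −0.16 without control mice 1 and 2. Replicate numbers are only names here: same-numbered mice correlated at −0.20, 0.39, 0.0014 and 0.20 in their deviations from the group means. After the filter, no subset median was computed, since members drop out.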
